A study of Gossypium hirsutum with 6 samples.

Results

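Among the transcripts assembled from the stem apex of upland cotton (Gossypium hirsutum), 240 were both abundant and at nearly the same level in a dwarf mutant, a tall-culm mutant and their wild type. They were chosen by their own values: a mean of at least 50 RPKM over the 3 lines and a highest value no more than 1.1 times the lowest. RPKM scales the reads of a transcript by its length in kilobases and by the mapped reads of the library, so that levels of transcripts of unequal length can be compared. The 240 steady transcripts were 12.7% of the 1894 transcripts with a mean of at least 50 RPKM, and the assembly held 156846 transcripts in all. Because the level and the ratio chose them, both are given here as a description and carry no test.

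The lines were the wild type Ari971 (A9) and its mutants Ari1327 (A1, dwarf) and Ari3697 (A3, tall-culm), both obtained from Ari971 by 60Co γ-ray irradiation. Stem apexes were taken from greenhouse seedlings at the fifth true leaf stage, and 1 mRNA library was read per line, so no value below has a replicate check and differences between lines cannot be told apart from differences between libraries. Irradiation can leave many lesions in a genome, and a mutant line stands for its own lesions only. The methods and the labels speak of pooling equal RNA amounts from the lines for library construction, whereas the titles and genotypes give each library to 1 line, and the latter was followed here.

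The 3 libraries were alike in total, with RPKM sums between 798674 and 805778. They were not alike in depth. Among transcripts between 0.2 and 0.5 RPKM, where values move in steps of single reads, the most frequent ratio was 1.09 for A1 over A9 and 1.12 for A3 over A9, so that 1 read was worth less RPKM in A9 and that library was the deepest. The study likewise reported the most valid reads for A9. The number of reads behind a single value and the transcript lengths are not in the files, so the counting error of each value was not computed. Transcripts carry assembly names only, so the tissue could not be checked against marker genes.

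Every plant cell needs a set of transcripts for basic tasks such as making nucleotides, amino acids, energy and proteins, and genes of this kind are often picked as internal references for qRT-PCR because their level changes little between samples. GhUBQ7, a cotton ubiquitin gene, served as such a reference in the study. Upland cotton is an allotetraploid that keeps an At and a Dt copy of most genes. A de novo assembly places sequences that resemble each other in a component, named here by its comp number, and lists each variant as a seq number; copies, splice forms and alleles may share a component, and reads that match several variants can be shared among them.

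Functions were known for steady transcripts only where the study lists a transcript as a predicted miRNA target. Plant miRNAs are short RNAs that guide cleavage of a matching transcript or block its translation. Of 512 listed transcripts in the assembly, 13 were abundant and 4 were steady. For 3 of the 4 the predicted site is available with its miRNA, and these sequences are shown to give the predicted pairing behind each listing, while the function names come from the study's lists, not from the sites. Capitals are bases in Watson-Crick pairs, and lower case letters are G:U pairs and unpaired bases. All strands run 5′ to 3′ and hold the aligned stretch only.
comp40106_c0_seq1 site: UGAAGuuUUUGGAgGAGAaU
ghr-m3791-5p on comp40106_c0_seq1: AcUCUCuUCCAAAggCUUCA
comp40638_c0_seq1 site: AAgGGGAGGAAUgGGAAAGA
ghr-m1352-3p on comp40638_c0_seq1: UCUUUCCaAUUCCUCCCaUU
comp42432_c0_seq2 site: GgGaUuCCCCAAAaACUUCAG
ghr-m1777-3p on comp42432_c0_seq2: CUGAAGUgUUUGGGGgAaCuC

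The site in comp40106_c0_seq1 had 16 of 20 bases in Watson-Crick pairs, 3 in G:U pairs and 1 unpaired. The site in comp40638_c0_seq1 had 18 of 20 paired and 2 unpaired. The other 5 newly predicted miRNAs listed for it carry the same aligned stretch and add no separate pairing. The conserved gra-miR482 is also listed for comp40638_c0_seq1, and its pairing is not shown here. The site in comp42432_c0_seq2 had 17 of 21 paired, 2 in G:U pairs and 2 unpaired. All 3 sites were predicted for cleavage. Both ghr-m3791-5p and ghr-m1352-3p were also listed for an abundant transcript that was not steady, and those sites are shown for comparison.
comp34947_c0_seq2 site: uUUGAgGCaUUUGGAAGAGAaU
ghr-m3791-5p on comp34947_c0_seq2: AcUCUCUUCCAAAgGCuUCAAg
comp35777_c0_seq1 site: GugAUGGGAGGAuUUGGAgAGA
ghr-m1352-3p on comp35777_c0_seq1: UCUuUCCAAuUCCUCCCAUucC

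The 4 steady transcripts with a listed function or ontology term all matched the metabolism keywords, and 1 of them also carried transport terms. Comp40106_c0_seq1 codes for uridine monophosphate synthetase, which completes the de novo synthesis of UMP, and stood at 158.93 RPKM in A1, at 164.71 in A3 and at 151.13 in A9. Comp42432_c0_seq2 codes for pyruvate kinase, which makes pyruvate and ATP in the last step of glycolysis, and stood at 69.19, 65.82 and 69.62 RPKM in A1, A3 and A9. Its listed terms include plastid. Comp40638_c0_seq1 codes for asparagine synthase, which moves the amide nitrogen of glutamine to aspartate, and stood at 50.67, 53.42 and 52.92 RPKM. No line was highest in all of these: A3 led for UMP synthetase and asparagine synthase, and A9 for pyruvate kinase. The fourth, comp36288_c0_seq1, has no function name but carries the terms potassium ion transport, ion channel activity and aryl-alcohol dehydrogenase activity, and is listed for aly-miR157d-3p. Its values were 115.38, 121.75 and 125.76 RPKM, from A1 to A9. The highest over lowest ratio was 1.09 for comp40106_c0_seq1 and comp36288_c0_seq1, 1.06 for comp42432_c0_seq2 and 1.054 for comp40638_c0_seq1. The first pair sat close to the limit: comp40106_c0_seq1 reached 1.1003 when the libraries were scaled by their median ratio, and comp36288_c0_seq1 reached 1.11 when scaled by the upper quartile, so each left the steady set under 1 scaling.

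The 9 other abundant listed transcripts fell outside the limit. In the keyword lists made from the listed functions and terms, the metabolism list (synthase, dehydrogenase, reductase or transferase) held 5 abundant transcripts, of which 4 were steady, and the translation list held 4, of which 0 were steady. These counts depend on the keywords. The fifth metabolism entry was a heat shock protein that carries a reductase term. Phenylalanine ammonia-lyase (comp34947_c0_seq2) and comp38613_c0_seq1 carry metabolic process terms, match none of the metabolism keywords and were not steady. The lists are therefore not compared with each other. Transport held 1 abundant transcript, which was steady, and cell wall and extracellular held 2 and protein folding and turnover held 1, of which 0 were steady. Of the 48 transcripts listed for transcription and the 2 listed for cytoskeleton 0 were abundant. Over all lists 13 of 512 were abundant, so no conclusion is drawn from these 0 counts. The translation list comprised ribosomal protein S17 (comp15825_c0_seq1), ribosomal protein L15 (comp35777_c0_seq1), ribosomal protein S2e (comp31710_c0_seq1) and initiation factor 2C (comp46753_c1_seq2), the family name of Argonaute proteins that carry miRNAs. The terms of S17 and L15 include plastid and chloroplast, and those of S2e and initiation factor 2C include neither. S17 stood at 158.34, 166.77 and 198.8 RPKM in A1, A3 and A9, a ratio of 1.26. L15, listed for the same miRNAs as asparagine synthase, stood at 123.09, 140.13 and 144.08 RPKM, a ratio of 1.17. For the newly predicted miRNAs among them, translation was the predicted mode on L15. S17, L15 and initiation factor 2C were lowest in A1 and highest in A9. S2e came nearest to the limit with 79.93, 71.28 and 76.82 RPKM and a ratio of 1.12. Initiation factor 2C stood at 64.58, 70.09 and 75.16 RPKM, a ratio of 1.16. Phenylalanine ammonia-lyase (comp34947_c0_seq2), which opens the phenylpropanoid pathway and shares ghr-m3791-5p with UMP synthetase, stood at 92.31, 96.04 and 113.84 RPKM, a ratio of 1.23. The remaining listed transcripts were heat shock 70kDa protein 4 (comp44949_c0_seq1), a chaperone, at 82.39, 90.94 and 105.64 RPKM, comp38613_c0_seq1, with chitinase terms, at 187.69, 194.38 and 249.03 RPKM, comp40372_c0_seq1, with an extracellular term, at 243.72, 212.49 and 239.47 RPKM, and comp37478_c0_seq1, with no term, at 129.01, 125.43 and 98.96 RPKM. Their ratios were 1.28, 1.33, 1.15 and 1.304. The 4 of 13 steady transcripts in these lists are too few to be set against the 12.7% of all abundant transcripts, and the lists hold predicted miRNA targets only.

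The most abundant steady transcript was comp28956_c0_seq2, at 947.19, 950.52 and 938.79 RPKM in A1, A3 and A9, and it ranked 12 among the 1894 abundant transcripts. Comp35474_c0_seq1 followed with 848.64, 828.1 and 864.1 RPKM, and comp35474_c0_seq2 of the same component with 620.26, 590.94 and 624.57. Both variants of comp35474_c0 were lowest in A3 and highest in A9. Comp26672_c0_seq2 stood at 576.05, 621.82 and 616.5 RPKM. Comp37871_c0_seq1, alone in its component, stood at 451.29, 480.63 and 477.27 RPKM. In both of these A1 was the lowest line, with A3 and A9 close together. Comp33152_c0_seq2 stood at 414.71, 402.5 and 416.95 RPKM, and comp34874_c0_seq1 at 403.63, 421.92 and 390.8.

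The next 8 transcripts by mean lay between 237.19 and 334.31 RPKM in every line and showed no common order of the lines. Comp31209_c0_seq1 was highest in A9 (310.05, 318.48 and 333.03 RPKM in A1, A3 and A9), and comp39514_c0_seq2 was highest in A1 (334.31, 317.06 and 307.31 RPKM). Comp45980_c0_seq2 was highest in A9 (293.11, 289.27 and 305.66 RPKM) and comp41868_c1_seq7 highest in A1 (258.85, 249.8 and 237.19 RPKM). The remaining 4 of the 15 were highest in A3. Comp34705_c0_seq2 stood at 270.6, 286.95 and 273.1 RPKM, and comp34705_c0_seq3 of the same component at 247.34, 264.98 and 256.78. Comp31236_c0_seq1 stood at 261.28, 269.91 and 264.77 RPKM, and comp36876_c0_seq1 at 253.85, 264.41 and 247.17. As the plot of the 15 most abundant steady transcripts shows, the points of the lines nearly touch along the whole range, and their order changes from transcript to transcript.

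**Figure D1:**
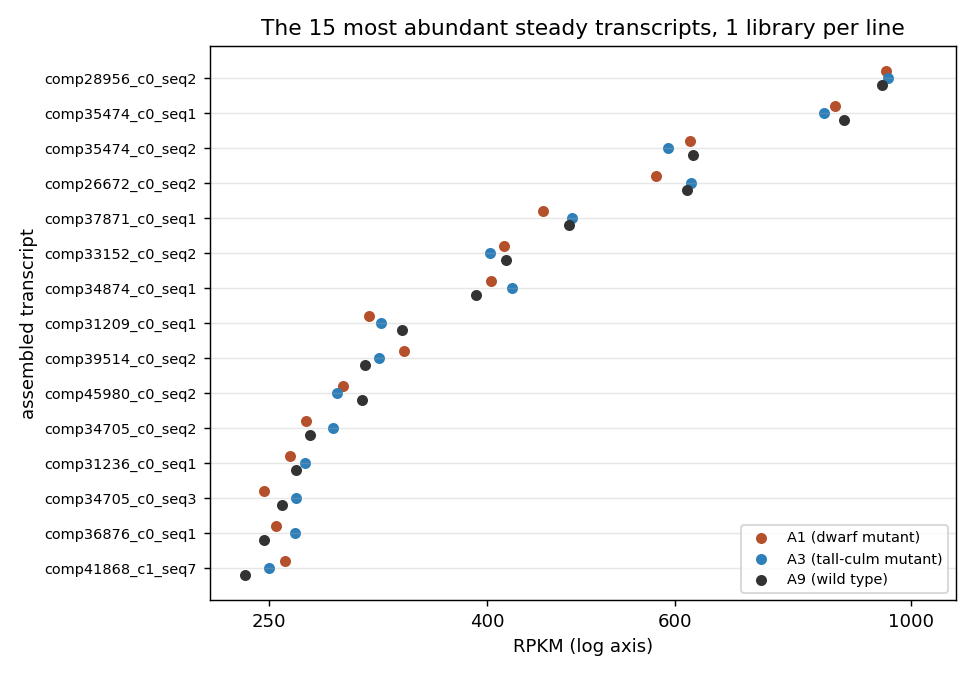
RPKM (log axis) of the 15 steady transcripts with the highest mean, 1 point per line and transcript (A1 brown, A3 blue, A9 black). The points of a transcript lie within a factor of 1.1 by the rule, from 947.19 RPKM in A1 for comp28956_c0_seq2 down to 237.19 RPKM in A9 for comp41868_c1_seq7, and no line is always highest.

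Of the 10 smallest ratios, 7 came from transcripts with a mean below 80 RPKM. The median over all 240 steady transcripts was 76.0 RPKM, so this count does not set the smallest ratios apart by level. Comp32540_c0_seq1 stood at 193.44, 193.51 and 193.49 RPKM, a ratio of 1.0004. The other variant of its component, comp32540_c0_seq2, stood at 167.94, 167.72 and 169.11 RPKM, a ratio of 1.008, so that the sum of the component differed by a ratio of only 1.004. Comp45274_c0_seq2 stood at 72.71, 72.87 and 72.68 RPKM, a ratio of 1.003. Its component held 2 more steady variants and 1 that was not: comp45274_c0_seq3 stood at 109.47, 113.08 and 123.12 RPKM, a ratio of 1.12. Comp37953_c0_seq1 (74.54, 74.59 and 75.2 RPKM), comp44666_c0_seq1 (68.49, 68.39 and 69.08 RPKM), comp41253_c0_seq1 (62.88, 62.65 and 63.4 RPKM) and comp45011_c0_seq1 (77.99, 79.07 and 78.65 RPKM) were each the only transcript of their component. Comp43138_c0_seq1 (55.28, 55.66 and 54.95 RPKM) and comp45609_c0_seq2 (76.03, 75 and 75.46 RPKM) held 77.6% and 78.1% of the RPKM of their components. The remaining transcript of the 10 smallest ratios was comp28956_c0_seq2, the most abundant steady transcript, at 1.01. A ratio this near to 1 in single libraries says nothing on how far the level would move between plants of a line.

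Over the 240 steady transcripts the mean level ran from 50.2 to 945.5 RPKM, with a median of 76.0 and quartiles of 61.5 and 115.0. The other 1654 abundant transcripts ran from 50.01 to 6122 RPKM, with a median of 81.5 and quartiles of 62.5 and 123.7. The levels of the sets thus overlapped. Between 500 and 1000 RPKM 4 of 33 transcripts were steady (12.1%), close to the 12.7% of all abundant transcripts, and of the 10 transcripts of at least 1000 RPKM 0 were steady, with an interval that includes that share. Below 100 RPKM stood 164 steady transcripts (68.3%) and 1071 of the others (64.8%). The ratio of highest to lowest had a median of 1.07 in the steady set, where the highest value was at most 5% above the lowest in 77 transcripts, at most 2% in 17 and more than 8% in 80. Among the others its median was 1.35. Of all abundant transcripts 166 (8.76%) had a ratio above 2, and 388 lay between 1.1 and 1.2. The plot of spread against level shows the steady transcripts as the lower edge of a continuous cloud with no gap at the limit.

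**Figure D2:**
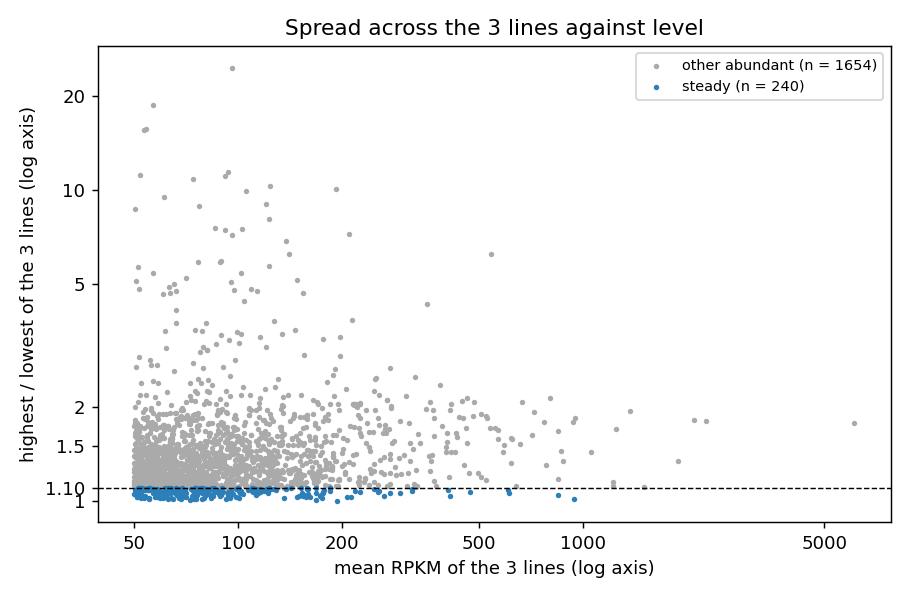
Ratio of the highest to the lowest RPKM of the 3 lines (log axis) against the mean RPKM of the lines (log axis), 1 point per abundant transcript: 240 steady (blue) and 1654 others (grey). The dashed line is the limit of 1.1; blue points reach 945.5 RPKM, the grey ones 6122 RPKM and a ratio of 24.8.

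The transcripts next to the limits show how little separates the sets there. Just inside the ratio limit were comp45983_c0_seq6 (96.44, 98.41 and 106.07 RPKM in A1, A3 and A9), comp34117_c0_seq3 (187.79, 192.6 and 175.12 RPKM) and comp43641_c0_seq7 (55.44, 52.71 and 50.41 RPKM), from 1.09978 to 1.09985. Just outside were comp26625_c0_seq1 (60.59, 66.65 and 61.96 RPKM), comp38144_c0_seq1 (130.17, 135.84 and 143.28 RPKM) and comp39484_c0_seq2 (88.84, 93.9 and 97.81 RPKM), from 1.10002 to 1.10097. Comp39484_c0_seq1, of the same component as the last of these, was steady at 171.43, 182.7 and 175.53 RPKM. Just inside the limit on the mean were comp35572_c0_seq1 (50.79, 51.13 and 48.55 RPKM), comp39191_c0_seq1 (50.46, 48.48 and 52.35 RPKM) and comp21607_c0_seq1 (51.28, 48.93 and 52.73 RPKM). Just outside it were comp39292_c2_seq1 (51.59, 49.86 and 48.37 RPKM), comp35294_c0_seq1 (51.88, 47.82 and 49.9 RPKM) and comp28379_c0_seq1 (48.66, 51.37 and 49.37 RPKM), whose ratios of 1.07, 1.08 and 1.06 would have met the other limit.

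The same limit of 1.1 was applied at other levels. Between 10 and 50 RPKM, 1687 of 13204 transcripts (12.8%) were within it, a share close to that of the abundant transcripts. Below that the share was smaller, with 10.6% between 5 and 10 RPKM, 8.75% between 2 and 5, and 6.04% between 1 and 2. Above 50 RPKM it had no steady trend: it was 13.9% between 50 and 75 RPKM (113 of 815), 12.1% between 75 and 100 (51 of 420), 10.3% between 100 and 150 (33 of 319), 16.4% between 150 and 200 (24 of 146) and 9.93% between 200 and 500 (15 of 151). The exact 95% binomial intervals of these last bins overlapped, for example 10.8 to 23.5% against 5.67 to 15.8%, and they cover counting of transcripts only. They take transcripts as independent, although variants of a component may share reads, so no conclusion is drawn from the overlap. For the 10 transcripts of at least 1000 RPKM a share of up to 30.9% is allowed by the interval. The typical spread, unlike this share, was larger at high levels. The median ratio of highest to lowest was 1.28 between 50 and 75 RPKM, 1.34 between 100 and 150 and 1.32 between 150 and 200. It was 1.49 between 200 and 500 RPKM, 1.58 between 500 and 1000 and 1.57 from 1000 RPKM upward. The last 2 bins hold 33 and 10 transcripts only, and the cause of the larger spread was not tested. With fewer reads a low value is also less precise, and the part of this in the smaller shares at low levels was not tested.

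**Figure D3:**
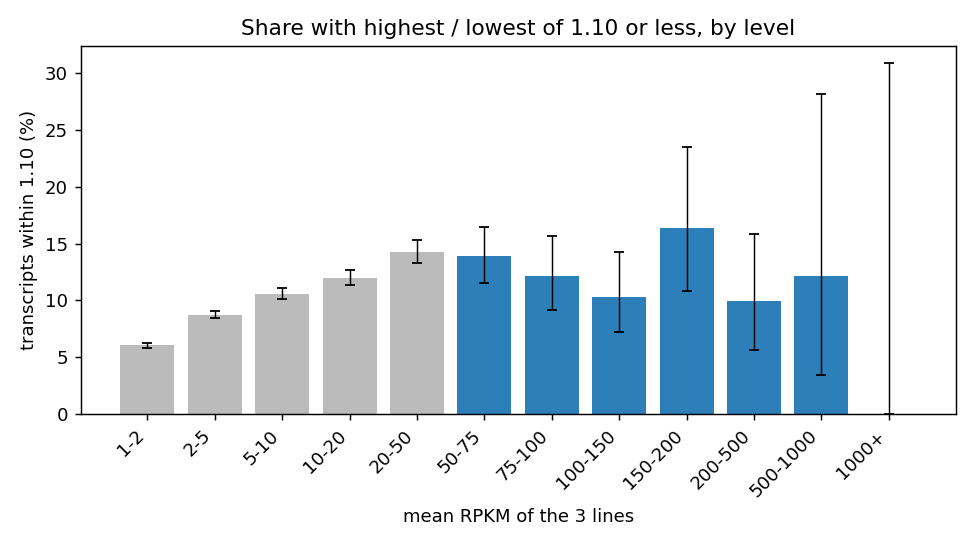
Share of transcripts (%) whose highest value is at most 1.1 times the lowest, by mean RPKM of the 3 lines; grey bars are below 50 RPKM, blue bars at or above it, and error bars are exact 95% binomial intervals. The share rises from 6.04% between 1 and 2 RPKM to 14.3% between 20 and 50 RPKM, and above 50 RPKM the intervals overlap.

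The most abundant transcripts outside the steady set show what was left out at the top. Comp31154_c0_seq1 had the highest mean of all and stood at 6760.23, 7419.11 and 4185.9 RPKM. Comp36788_c0_seq2 (1786.63, 1810.62 and 3230.17 RPKM) and comp15241_c0_seq1 (1672.21, 1636.07 and 2971.71 RPKM) were higher in A9, and comp21547_c0_seq1 (2062.2, 2054.41 and 1534.91 RPKM) was lower there. In these 4 transcripts A1 and A3 were close together and A9 stood apart. Comp28956_c0_seq1 (1409.64, 1554.43 and 1540.67 RPKM) missed the limit narrowly at 1.103, and its partner variant comp28956_c0_seq2 was the most abundant steady transcript. At the far end, comp31602_c0_seq1 stood at 196.76, 83.89 and 7.94 RPKM, a ratio of 24.8. The next largest ratios, comp28751_c0_seq1 (116.53, 47.56 and 6.19 RPKM), comp44253_c0_seq1 (101.53, 54.78 and 6.47 RPKM), comp44253_c0_seq2 (99.89, 54.25 and 6.41 RPKM) and comp33923_c0_seq5 (167.54, 98.99 and 14.62 RPKM), had the same order of lines, highest in A1 and lowest in A9.

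The steady transcripts together held 3.26%, 3.32% and 3.31% of the summed RPKM of A1, A3 and A9. Their sums were 26304, 26508 and 26460 RPKM. The other abundant transcripts held 25.88%, 26.02% and 26.55%, so the steady set was 11.2%, 11.3% and 11.1% of the abundant sum. This sum was not carried by a few transcripts: the 10 highest steady transcripts held 19.8% of it, and 58 were needed to reach 50%. That the share was alike in the lines follows from the rule.

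For pairs of lines the limit was met more often. Among abundant transcripts, A1 and A9 were within 1.1 of each other in 451 (23.8%), A3 and A9 in 592 (31.3%), and A1 and A3 in 801 (42.3%). Each pair shares a line with the others, so these counts are not independent. Among the 1654 abundant transcripts outside the steady set, A3 was the middle line in 1094 (66.1%), A1 in 325 (19.6%) and A9 in 234 (14.1%), with 1 transcript that had tied values left out. In the steady set the middle place was spread more evenly, with A3 in 80 (33.3%), A1 in 86 (35.8%) and A9 in 74 (30.8%). A3 was highest in 89 steady transcripts, A9 in 87 and A1 in 64. A1 was lowest in 90, A9 in 79 and A3 in 71. On the log2 scale the differences in the steady set were small by the rule, with a median size of 0.06 for A1 against A9 and 0.05 for A3 against A9 and for A1 against A3. In the other abundant transcripts those medians were 0.38, 0.29 and 0.19. Steady transcripts were higher in A1 than in A9 in 109 of 240 cases and higher in A3 than in A9 in 123. Which of 3 close values is in the middle also moves with the scaling of the libraries, and with 1 library per line the order was not tested. The order is read from the same values that the rule used, so its contrast between the sets is a description only.

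**Figure D4:**
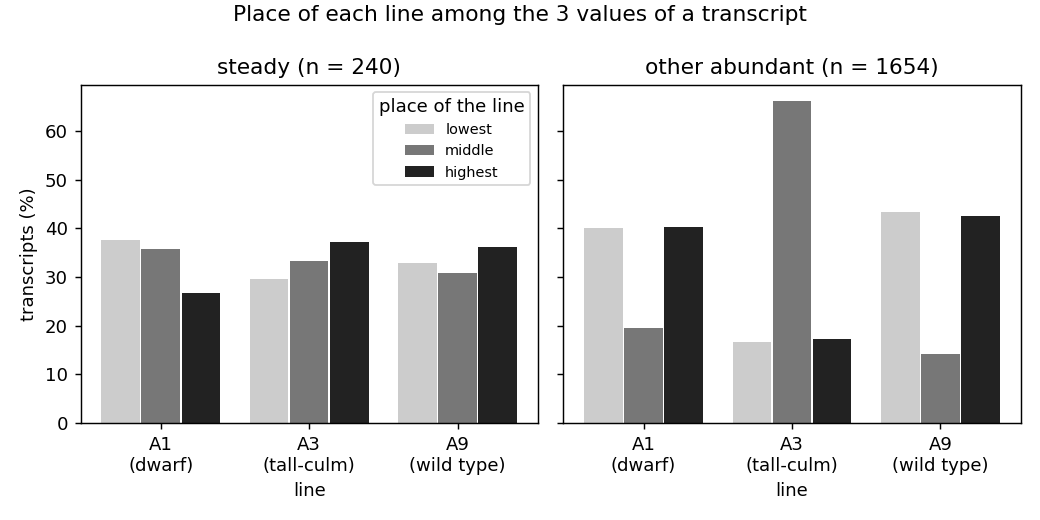
Share of transcripts (%) in which each line was the lowest, middle or highest of the 3, for the 240 steady transcripts (left) and the 1654 other abundant transcripts (right). A3 is the middle line in 66.1% of the others and in 33.3% of the steady transcripts. The order is read from the values that the rule used, so the contrast is a description only.

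Component size was not part of the rule. Of the steady transcripts 107 were alone in their component (44.6%, exact 95% binomial interval 38.2 to 51.1%), against 785 of the other abundant transcripts (47.5%, 45.03 to 49.9%). Components of 2 transcripts held 51 steady transcripts (21.2%) and 297 others (18.0%), and components of 3 to 5 held 52 (21.7%) and 309 (18.7%). Components of 6 to 10 held 20 (8.33%) and 144 (8.71%), and larger ones held 10 (4.17%) and 119 (7.19%). The median size was 2 in both sets, and the largest component held 18 transcripts for the steady set and 83 for the others. The intervals for transcripts alone overlapped and cover counting error only. They take transcripts as independent, although 64 steady transcripts shared a component with another one, so no conclusion is drawn from the overlap. Over all 156846 transcripts, 35.2% were alone and the median size was 4.

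The 240 steady transcripts lay in 202 components, of which 176 held 1 of them, 20 held 2, 2 held 3, 2 held 4 and 2 held 5. In 38 components a steady transcript stood beside an abundant transcript outside the limit, and these components held 56 of the steady transcripts. In 12 components with several transcripts all transcripts were steady. Comp40346_c0 was such a component, with 4 of 4 steady. Its transcripts seq3 (161.79, 164.51 and 159.76 RPKM), seq1 (154.74, 157.94 and 152.29 RPKM) and seq4 (147.91, 150.57 and 146.11 RPKM) were highest in A3 and lowest in A9, and seq2 (104.73, 111.82 and 114.68 RPKM) was lowest in A1 and highest in A9. Comp42652_c0 also had 4 of 4 steady, and all were highest in A3, with comp42652_c0_seq2 at 91.78, 96.15 and 92.27 RPKM, seq1 at 88.36, 91.86 and 88.56, seq3 at 81.11, 84.95 and 79.88 and seq4 at 78.48, 81.54 and 77.07. Variants of a component that move in parallel may be counted from shared reads, so they are not separate observations.

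Comp45980_c0 had 5 steady transcripts of 14, and all 14 were abundant. The 9 others lay outside the limit. The ratios of the component ran from 1.06 to 1.18, and the sum over the component was 2204, 2207 and 2374 RPKM. Besides comp45980_c0_seq2, the steady ones were seq3 (221.62, 220.24 and 235.43 RPKM), seq9 (121.67, 127.79 and 132.69 RPKM), seq5 (89.74, 85.95 and 94.39 RPKM) and seq6 (82.08, 80.08 and 87.43 RPKM), all highest in A9. Comp41868_c1 had 5 steady transcripts of 10. Besides comp41868_c1_seq7 these were seq6 (225.3, 209.12 and 220.78 RPKM), seq3 (163.93, 159.99 and 156.32 RPKM), seq8 (152.16, 147.43 and 151.11 RPKM) and seq5 (50.71, 50.51 and 51.77 RPKM). The same component held transcripts that differed between the lines. Its main transcript comp41868_c1_seq1 stood at 1218.86, 1140.29 and 1307.37 RPKM, a ratio of 1.15. Comp41868_c1_seq4 stood at 153.36, 130.27 and 106.12 RPKM, a ratio of 1.45, and seq2 and seq9 had the same order, from A1 down to A9. The sum over comp41868_c1 was 2400, 2247 and 2372 RPKM, a ratio of 1.07.

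Comp39966_c0 had 3 steady transcripts of 7. These were seq3 (75.77, 76.38 and 73.19 RPKM), seq2 (65.63, 62.86 and 60.78 RPKM) and seq5 (62.6, 63.94 and 58.41 RPKM), and all were lowest in A9. The other 4 transcripts were lowest in A9 as well, with comp39966_c0_seq1 falling from 85.13 RPKM in A1 to 75.51 in A3 and 62.43 in A9, and the sum over the component had a ratio of 1.12, outside the limit. A steady transcript thus did not always mark a steady component. The pyruvate kinase component comp42432_c0 was the reverse case: its 3 minor transcripts were all highest in A3 and lowest in A9 at 2.03 to 10.77 RPKM, while the steady transcript held 77.2% of the RPKM and the sum had a ratio of 1.04.

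Summed over components, 615 of the 3290 components with a mean sum of at least 50 RPKM (18.7%) were within 1.1. Of the 95 components with several transcripts that held a steady transcript, 63 (66.3%) had a sum within 1.1, with a median ratio of 1.08 and a largest of 1.26. Of the 424 such components that held other abundant transcripts only, 27 (6.37%) did, with a median of 1.33 and a largest of 15.6. Steady transcripts made up a median of 62.5% of the sum of their component. In the components with other abundant transcripts only, those transcripts, all outside the limit, made up a median of 79.6%. On both sides the sums thus repeat in part the values that the rule used, and the gap follows in part from the rule. Components with a steady transcript also held 73 abundant transcripts outside the limit. In both kinds of component, the transcripts between 5 and 50 RPKM were not used by the rule. In components with a steady transcript 30 of 150 of them (20%, from 56 components) were within 1.1, with a median ratio of 1.19. In components with other abundant transcripts only it was 79 of 853 (9.26%, from 276 components), with a median ratio of 1.32. The difference ran in the same direction at each level, though on small counts. Between 5 and 10 RPKM it was 8 of 48 (16.7%) and 16 of 211 (7.58%). Between 10 and 20 RPKM it was only 5 of 43 (11.6%) and 17 of 202 (8.42%), which are close. Between 20 and 50 RPKM it was 17 of 59 (28.8%) and 46 of 440 (10.5%). Transcripts of a component can share reads, and the part of shared reads in this was not tested.

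**Figure D5:**
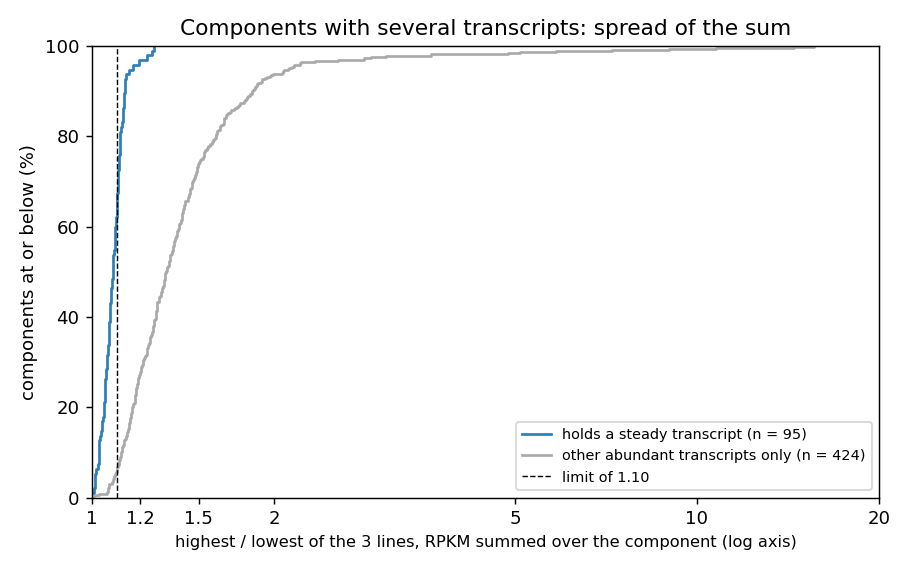
Cumulative share of components (%) against the ratio of highest to lowest RPKM sum of the 3 lines (log axis), for components with several transcripts: 95 that hold a steady transcript (blue) and 424 that hold other abundant transcripts only (grey). At the dashed limit of 1.1 the curves stand at 66.3% and 6.37%, and the blue one ends at 1.26. The sums include the values that the rule used, so the gap follows in part from the rule.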

How the data were processed

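Clean reads of the mRNA libraries were assembled together with Trinity by the authors, who deposited 1 RPKM value per assembled transcript and line, to 2 decimals. The read mapper, and how reads matching several transcripts were counted, are not given in the sources used here. Small RNA libraries were not used here.

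The 3 tables were joined by transcript name, and the rule (mean of at least 50 RPKM, ratio of highest to lowest of at most 1.1) was applied to the values as deposited, with no further scaling and no pseudocount. A component is the transcript name without its seq number. Functions and site sequences came from the study's target lists, matched by transcript name. Transcripts were named by rank (15 highest means, 10 smallest ratios), as listed targets, as members of the 5 components with the most steady transcripts (ties by summed mean), and as the 3 nearest to each limit on either side; outside the set, the 5 highest means, the 5 largest ratios and the listed targets. A few further transcripts of those components were named after their values were seen. The members and lists were chosen with earlier results of these data known. With 1 library per line no test was run. Binomial intervals are exact (Clopper-Pearson), take transcripts as independent and cover counting error only. Relative depth was read as the most frequent ratio between libraries among low values. The alternatives were 3 scalings, 1 RPKM added, other limits, a minimum in every library, component sums and pairs of lines. The scripts were tested on simulated data and run in Python 3.11.15 with pandas 2.3.3, scipy 1.17.1, matplotlib 3.10.9 and numpy 2.4.6.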

Additional observations from a re-analysis of the deposited data

How the results depend on the processing

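The number of steady transcripts moved little with the scaling: 248 with median ratio scaling, 229 with equal RPKM sums, 226 with upper quartile scaling and 244 with 1 RPKM added, against 240, and 213, 223, 212 and 240 of the 240 were kept. Their share of the summed RPKM, 3.30% over the 3 libraries, was then 3.53%, 3.15%, 3.19% and 3.34%. Of 53 named steady transcripts, 47, 50, 47 and 53 stayed within 1.1, and the largest ratio was 1.12. The limits decided the numbers. With a highest value at most 5% above the lowest, 77 transcripts were steady, which were 4.07% of the abundant ones and 1.15% of the summed RPKM, and 37.7% of them were alone in their component. A limit of 1.2 gave 628 transcripts, 33.2% and 8.59%. A mean of at least 20 RPKM gave 882 transcripts with 5.77% of the summed RPKM and 35.6% alone, and a mean of at least 100 RPKM gave 76 transcripts with 1.90% and 38.2% alone. With at least 50 RPKM in every library, 15.02% of the abundant transcripts were steady, with 3.23% of the summed RPKM. Component sums gave 615 steady components, 18.7% of those with at least 50 RPKM and 9.10% of the summed RPKM, and no value for transcripts alone. With the ratio over A1 and A9 only, 451 transcripts (23.8%) were steady with 6.74% of the summed RPKM, with A3 and A9 only 592 (31.3%) with 7.77%, and with A1 and A3 only 801 (42.3%) with 13.1%. A wider or narrower limit changes the number of transcripts by construction; the cause of the shifts in the share alone in their component was not tested. No paired analysis was possible because each line has a single mRNA library, and for the same reason no replicate could be left out. Read numbers per transcript are not in the files, so the amount by which depth limits the precision of each value was not computed.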
